A study of Mus musculus with 4 samples.

Results

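In wild-type mouse epidermis, 2484 wide YAP binding peaks had no overlapping peak in epidermis of Bmal1 knockout mice. They were chosen by width and by overlap with the KO list: they are the peaks of the wild-type (WT) list with a width, end minus start, of at least 700 bp that share not even 1 bp with any peak of the knockout (KO) list. The WT list held 36576 peaks, of which 9400 were at least 700 bp wide, and the 2484 are 26.4% of these wide peaks. Over the whole WT list, 60.9% of peaks overlapped no KO peak. These shares describe the choice and were not tested. The peaks are called wide WT-only peaks below, and the other 6916 wide peaks, which overlapped a KO peak, are called wide shared peaks.

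The 2 ChIP samples were epidermal cell suspensions from the skin of adult mice aged 18 to 25 weeks, with genotype Bmal1 WT or Bmal1 KO per the labels. All were collected at Zeitgeber time 4, which is 4 hours after lights on. The protocol names the knockout mice Bmal1cKO, and neither the cells that lost the gene nor any driver is named there. YAP was precipitated from chromatin fixed with a Gold fixative and then with formaldehyde. Each genotype had 1 list of peaks named pooled, so no value has a replicate error, no test between genotypes was possible, and no p-value is given. The KO list held 14879 peaks. Reads at each summit were recovered from the authors' fold and p, and the lowest local background in these reads was 9.63 in both lists. A peak that was not called in KO may still hold YAP reads there, and the weakest summit in the KO list had 29 recovered reads.

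YAP is a transcriptional co-activator of the Hippo pathway. It has no DNA-binding domain of its own and is brought to DNA mainly by TEAD proteins, which bind the letters GGAATG, often beside AP-1 sites at enhancers far from genes. BMAL1 pairs with CLOCK and binds E-boxes such as CACGTG to drive the circadian clock. In the epidermis, the Hippo pathway and the clock both bear on the balance of growth and differentiation of keratinocytes.

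Wide WT-only peaks often lay over gene promoters, and bases of such promoters are shown first because the results turn on them. Shown are the 250 bases before the transcription start, 5′ to 3′ on the gene's strand, from the RefSeq table of GRCm38.p6 (the assembly called mm10), for promoters in which the summit of a wide WT-only peak lay. The last line, Wwc2, is a promoter under a wide shared peak, for contrast. Capitals mark matches to TEAD (GGAATG), AP-1 (TGANTCA), E-box (CACGTG), GC box (GGGCGG) and ETS (CCGGAAG) letters on either strand. A match is a description of letters, not a binding site. These promoters were chosen after their values were seen.
Ctnnb1: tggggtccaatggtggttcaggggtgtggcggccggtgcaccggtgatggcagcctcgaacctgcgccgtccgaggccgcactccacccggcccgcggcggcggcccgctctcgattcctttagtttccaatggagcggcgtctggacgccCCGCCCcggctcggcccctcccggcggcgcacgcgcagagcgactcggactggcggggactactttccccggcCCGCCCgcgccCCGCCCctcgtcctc
Mafk: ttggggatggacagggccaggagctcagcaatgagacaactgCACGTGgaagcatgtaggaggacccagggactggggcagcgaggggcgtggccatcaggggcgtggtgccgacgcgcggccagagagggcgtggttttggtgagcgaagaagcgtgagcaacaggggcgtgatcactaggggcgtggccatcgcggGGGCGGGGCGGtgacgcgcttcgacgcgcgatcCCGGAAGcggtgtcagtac
Irf1: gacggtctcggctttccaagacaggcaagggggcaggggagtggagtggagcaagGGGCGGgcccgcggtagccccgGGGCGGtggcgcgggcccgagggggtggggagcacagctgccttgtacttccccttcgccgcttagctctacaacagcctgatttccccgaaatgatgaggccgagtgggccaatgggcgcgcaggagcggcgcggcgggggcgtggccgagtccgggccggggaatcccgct
Tagln2: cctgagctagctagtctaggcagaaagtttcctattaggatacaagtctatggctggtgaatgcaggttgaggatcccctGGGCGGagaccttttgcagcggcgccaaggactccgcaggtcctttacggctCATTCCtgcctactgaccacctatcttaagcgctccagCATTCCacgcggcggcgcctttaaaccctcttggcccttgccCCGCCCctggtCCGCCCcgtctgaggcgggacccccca
Rpl23: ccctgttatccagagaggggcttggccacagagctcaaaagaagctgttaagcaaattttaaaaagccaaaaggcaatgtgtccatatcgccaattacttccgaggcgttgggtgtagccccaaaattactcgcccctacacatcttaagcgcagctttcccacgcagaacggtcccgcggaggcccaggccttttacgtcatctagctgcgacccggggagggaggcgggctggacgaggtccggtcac
Wwc2: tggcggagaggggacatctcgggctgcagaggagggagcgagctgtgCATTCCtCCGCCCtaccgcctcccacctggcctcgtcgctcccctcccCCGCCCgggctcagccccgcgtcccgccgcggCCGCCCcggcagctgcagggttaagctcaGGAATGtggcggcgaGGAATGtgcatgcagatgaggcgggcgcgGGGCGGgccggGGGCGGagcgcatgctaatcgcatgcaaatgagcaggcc

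The stretch before Ctnnb1, which encodes β-catenin, lies on the plus strand at chr9:120933150-120933399, has 3 GC boxes, 35 CG steps and 74.8% G+C, and its peak had 72 WT reads. The stretch before Mafk, which encodes a small MAF factor, lies at chr5:139791286-139791535 and holds 1 E-box, 1 ETS match and 2 GC boxes. The stretch before Irf1, an interferon regulatory factor, lies at chr11:53769764-53770013 and holds 2 GC boxes. Tagln2, which encodes an actin-binding transgelin, has 2 TEAD matches at chr1:172499996-172500245. The Rpl23 stretch, before a ribosomal protein gene on the minus strand at chr11:97782440-97782689, holds none of the 5 kinds of letters. Wwc2 encodes a Hippo pathway scaffold, and its stretch at chr8:47990545-47990794 on the minus strand holds 3 TEAD matches under a peak of 221 WT reads. It also holds 5 GC boxes and 26 CG steps. It is not typical of its class, as TEAD letters stood in only 17.6% of promoters under wide shared peaks.

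Wide WT-only peaks were broad and of moderate height. Their width ran from 700 bp to 2104 bp, with a median of 853 bp, and 53 were at least 1500 bp wide. Together they covered 2.27 Mb, which is 23.8% of the bases in wide WT peaks. The number of WT reads at the summit ran from 33 to 124, with a median of 60 and quartiles of 51 and 69. Wide shared peaks had a median of 109 reads with quartiles of 84 and 142, so the upper quartile of the WT-only peaks was below the lower quartile of the shared ones. WT-only peaks under 700 bp had a median of 50 reads, and all WT peaks 61. Among wide WT-only peaks 21 had at least 100 reads and 1 had at least 120. The median of the authors' fold at the summit was 4.58, against 8.11 for wide shared peaks. These values go with the choice of the peaks and are given as a description.

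**Figure D1:**
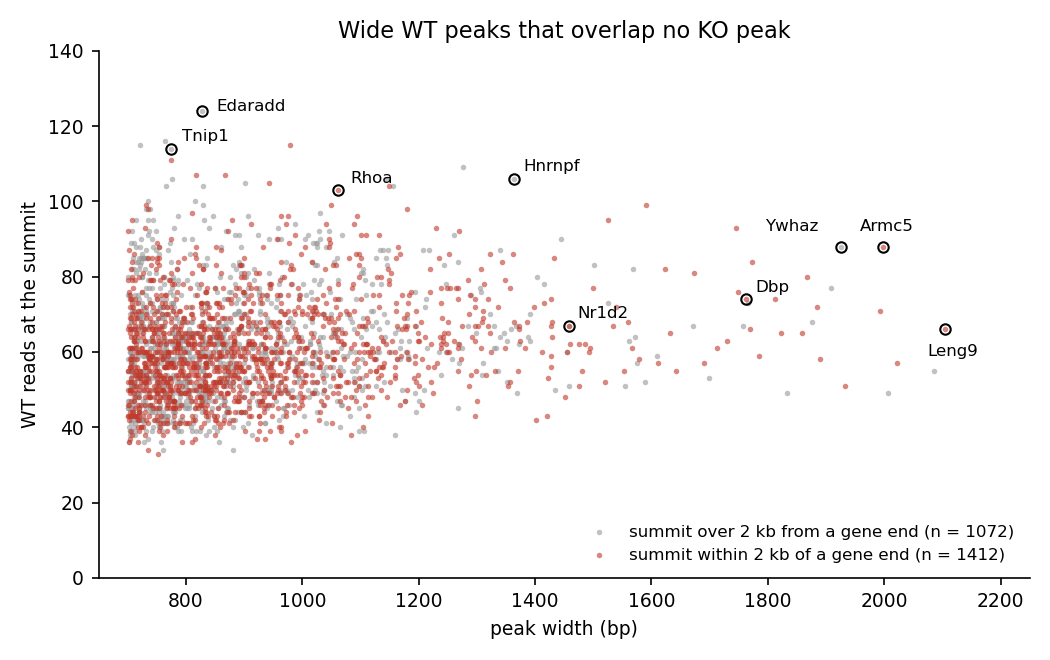
Each point is 1 of the 2484 wide WT-only peaks, with its width in bp on the x axis and its WT reads at the summit on the y axis; red points have a summit within 2 kb of a gene end, and 9 named peaks are circled. Only 21 points lie at 100 reads or more, and the widest peak, at Leng9, had 66 reads.

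At the width limit, 116 wide WT-only peaks were under 10 bp wider than 700 bp and had a median of 56.5 reads. Up to 10 bp below it, 112 WT-only peaks had a median of 58. In the other direction no such peak was found: all 1807 KO peaks of at least 700 bp overlapped a WT peak. The WT list was the longer, with 36576 peaks against 14879, and with 9400 wide peaks against 1807. A KO peak therefore meets a WT peak more easily than the reverse. Whether the difference between the directions goes beyond the lengths of the lists was not tested.

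Wide WT-only peaks sat at gene ends more often than any other class of WT peak. Of the 2484 peaks, 1412 (56.8%, exact 95% interval 54.9 to 58.8) had their summit within 2 kb of an end of a protein-coding gene span. The share was 30.3% (29.2 to 31.4) for wide shared peaks, 26.9% (26.2 to 27.5) for WT-only peaks under 700 bp and 15.3% (14.5 to 16.2) for shared peaks under 700 bp. The end in question was mostly the start of the gene. For genes whose strand is known, 47.8% (45.8 to 49.8) of wide WT-only peaks lay within 2 kb of the 5′ end of the span and 5.59% (4.71 to 6.58) within 2 kb of the 3′ end. The 3′ share was 5.05% for wide shared peaks and 4.79% for WT-only peaks under 700 bp, and the 3 intervals overlap. It was 3.52% (3.10 to 3.97) for shared peaks under 700 bp, below the interval of the wide WT-only peaks. Peaks of 1 pool are not replicates, and these intervals cover counting error only.

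The share at gene ends was higher in wider WT-only peaks, from bin to bin, and in shared peaks it was so from 400 bp up. Among WT-only peaks it was 22.8% under 400 bp, 43.1% from 600 to under 700 bp, 51.1% from 700 to 799 bp and 64.7% (56.1 to 72.7) from 1300 bp up. Among shared peaks it was 17.2%, 17.8%, 22.6% and 39.0% (36.2 to 41.7) in the same bins, with a low of 12.1% (10.6 to 13.8) from 400 to under 500 bp. The intervals of WT-only and shared peaks did not overlap in any of the 8 width bins.

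**Figure D2:**
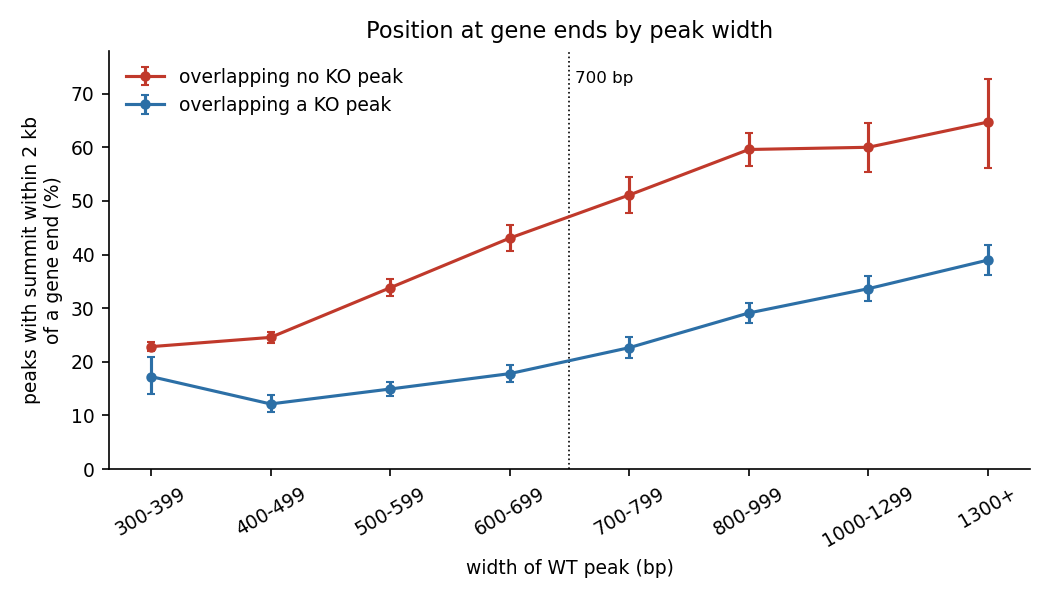
Share of WT peaks with the summit within 2 kb of a gene end (y axis, percent) by peak width in bp (x axis), for peaks that overlap no KO peak (red) and peaks that overlap one (blue); bars are exact 95% intervals. The red line rises throughout, the blue line first falls from 17.2% to 12.1% and then rises, and red lies above blue in every bin, at 51.1% against 22.6% from 700 to 799 bp.

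Summit strength differed between the classes, so the shares were also taken among peaks within 10 reads of each other. From 50 to 59 reads, 60.4% (56.8 to 64.0) of wide WT-only peaks lay at a gene end, against 43.2% (36.0 to 50.7) of wide shared peaks and 27.0% of WT-only peaks under 700 bp. From 60 to 69 reads the shares were 58.5% (54.7 to 62.2), 48.0% (43.5 to 52.6) and 26.0%. From 70 to 79 reads they were 57.4% (51.9 to 62.8), 40.7% (36.9 to 44.5) and 21.2%. In these 3 bins the gap to wide shared peaks was narrower than over all peaks, and the intervals did not overlap. Read the other way, among wide WT peaks of 70 to 79 reads, 41.0% (190 of 463) of those at a gene end and 26.2% (141 of 539) of those elsewhere overlapped no KO peak. From 50 to 59 reads these shares were 84.6% and 73.4%, and at 100 or more reads 0.720% and 0.451%.

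**Figure D3:**
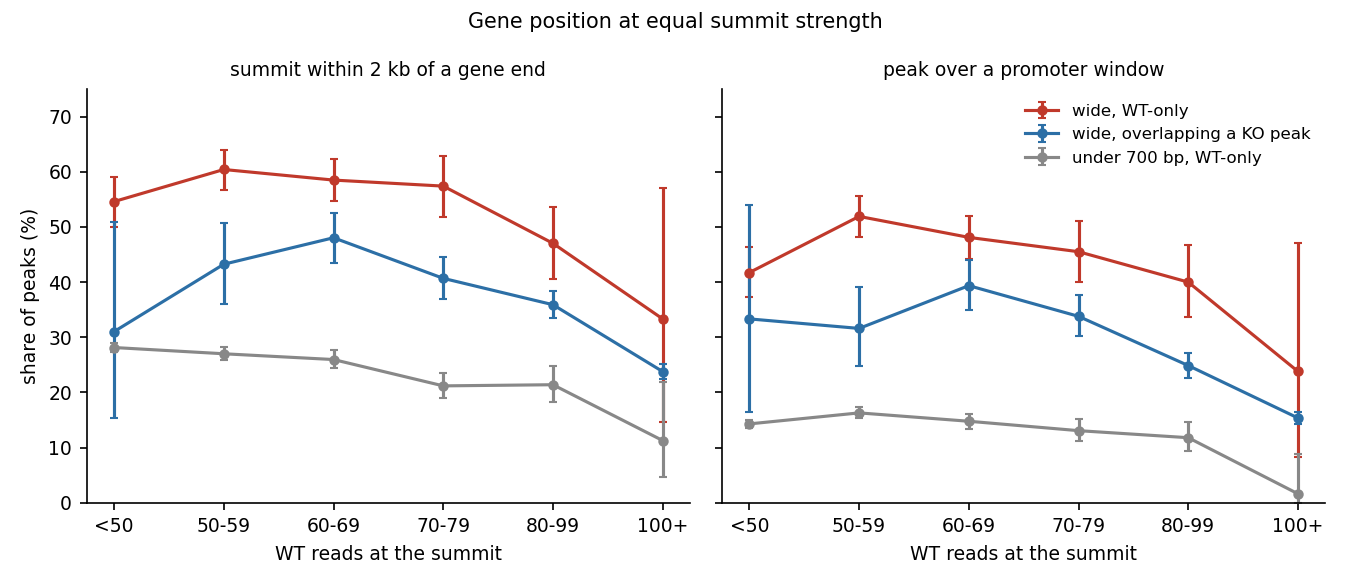
Share of peaks (y axis, percent) with the summit within 2 kb of a gene end (left) or over a promoter window (right), by WT reads at the summit (x axis), for wide WT-only, wide shared and narrower WT-only peaks; bars are exact 95% intervals. From 50 to 79 reads the wide WT-only peaks lie above both other classes in both panels, and the intervals are wide for wide shared peaks below 50 reads (29 peaks) and for wide WT-only peaks from 100 reads (21 peaks).

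Many wide WT-only peaks covered the promoter itself. A promoter window here runs from 250 bases before to 50 after a RefSeq start, and 17492 of 21900 protein-coding genes have one in the table, none of them on chromosome 18. Outside that chromosome, 1126 of 2414 wide WT-only peaks (46.6%, 44.6 to 48.7) overlapped such a window by at least 1 base. The share was 21.4% (20.4 to 22.4) for wide shared peaks. It was 14.7% for WT-only peaks under 700 bp, which reach fewer bases by their width alone. Windows of 2 or more genes were covered by 133 of the 1126 peaks, and windows on both strands by 125. One example is the peak on chromosome 9 from 108306015 to 108307076, with 103 WT reads, over the starts of Rhoa, a small GTPase that organises actin, and Tcta.

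The summits lay close to the start and leaned upstream, less so than in wide shared peaks. In the 816 wide WT-only peaks over 1 start, the summit lay a median of 30 bp upstream of it (-30, quartiles -198 and 126), with 55.6% (52.2 to 59.1) upstream. In 1042 wide shared peaks it lay farther upstream, at a median of -111 bp, with 64.8% (61.8 to 67.7) upstream. The wide WT-only peaks reached a median of 449 bp upstream and 423 bp downstream of the start, against 570 and 453 bp for wide shared peaks. Within the peak, the summit stood off centre: its distance from the nearer edge was a median of 32.6% of the width, against 38.3% for wide shared peaks. Peaks under 700 bp differed in the same directions. Their median summit lay at -8 bp in WT-only and -44 bp in shared peaks over 1 start. It stood 42.7% and 45.3% of the width from the nearer edge. None of these contrasts was matched on reads.

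**Figure D4:**
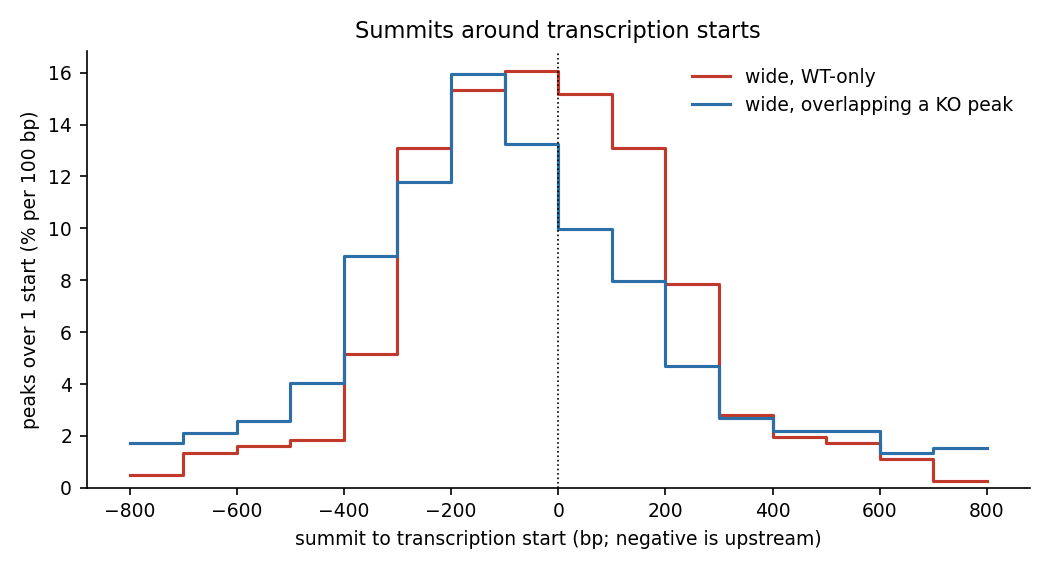
Distance from summit to transcription start in bp (x axis, negative is upstream) as percent of peaks per 100 bp (y axis), for 816 wide WT-only peaks (red) and 1042 wide shared peaks (blue) over 1 start; summits beyond 800 bp are not drawn. Both lines lean upstream, the blue one more, with medians of -30 (red) and -111 bp (blue).

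The promoters under wide WT-only peaks were rich in CpG. Over 1445 windows of 1256 genes, the median G+C content was 64.7% and the median ratio of observed to expected CpG was 0.853. All 21263 protein-coding windows had medians of 56.3% and 0.567, and windows under no WT peak 52.3% and 0.339. A ratio above 0.6, a usual mark of CpG islands, was found in 87.8% (86.0 to 89.5) of windows under wide WT-only peaks, 79.3% (77.4 to 81.2) of those under wide shared peaks and 47.6% of all windows. Among peaks of 50 to 79 reads the shares were 88.2% (86.1 to 90.0) and 85.9% (82.9 to 88.6), and the intervals overlap. Windows under WT-only peaks under 700 bp had such a ratio in 82.3% (80.9 to 83.5), and in 84.2% (82.4 to 85.9) from 50 to 79 reads.

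TEAD letters were less common in these promoters than in those under wide shared peaks, but not among peaks of 50 to 79 reads. Within that range the wide shared peaks were still the stronger, with a median of 70 reads against 61. GGAATG on either strand stood in 10.4% (8.86 to 12.1) of windows under wide WT-only peaks, 17.6% (15.9 to 19.4) under wide shared peaks and 13.6% of all windows. Among peaks of 50 to 79 reads the shares were 10.6% (8.84 to 12.6) and 9.002% (6.85 to 11.6). AP-1 letters, TGANTCA, stood in 3.94% (3.001 to 5.08), 6.56% (5.47 to 7.80) and 6.99% in the same order, and from 50 to 79 reads in 3.82% and 4.91%. The E-box CACGTG stood in 11.9% (10.3 to 13.7) of windows under wide WT-only peaks and 11.0% (9.60 to 12.5) under wide shared peaks, with overlapping intervals, and in 7.84% of all windows. GC boxes stood in 76.5% and 73.4%, against 46.2% of all windows, and ETS letters in 21.4% and 17.7%, against 11.6%. From 50 to 79 reads GC boxes stood in 76.1% of windows under both. ETS letters stood in 21.2% (18.8 to 23.8) and 19.0% (15.9 to 22.3) in that range, with overlapping intervals. The GC box and ETS letters were added after the data had been seen. Windows under WT-only peaks under 700 bp had TEAD letters in 10.2% (9.20 to 11.3), close to the wide WT-only peaks. In these windows AP-1 letters stood in 4.91%, the E-box in 11.5%, GC boxes in 68.3% and ETS letters in 23.3% (21.9 to 24.8).

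Away from gene ends, the wide WT-only peaks lay closer to other YAP peaks. Of 1412 peaks at gene ends, 21.0% (18.9 to 23.3) had a KO peak within 5 kb, and of the 1072 others 32.9% (30.1 to 35.8). Another WT peak lay within 5 kb of 44.1% (41.4 to 46.7) and 59.2% (56.2 to 62.2). Over all wide WT-only peaks these shares were 26.2% for a KO peak and 50.6% for a WT peak, against 25.3% and 47.9% for WT-only peaks under 700 bp. Summit reads were alike in both places, with medians of 59 at gene ends and 60 elsewhere. Only 13 peaks had a KO peak within 200 bp, and 315 had none within 100 kb. By place, 59.5% lay inside a gene span, 26.9% up to 10 kb outside, 10.6% from there to 100 kb, and 3.06% (76 peaks) beyond.

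The strongest wide WT-only peak lay 21660 bp from Edaradd, an adaptor of the ectodysplasin receptor that shapes hair and other skin appendages, on chromosome 13 from 12541918 to 12542744. It had 124 WT reads over a local background of 11.5, and the nearest KO peak lay 46790 bp away. A peak of 114 reads inside Tnip1, which restrains NF-κB, ran from 54955542 to 54956315 on chromosome 11, with no KO peak for 71120 bp. Tuft1, which encodes tuftelin, had a peak of 115 reads 800 bp outside its span. Inside Cuedc1, a peak of 115 reads lay 6524 bp from a KO peak. Other strong peaks lay inside Arhgef3, an activator of RhoA (104 reads), Deptor, an inhibitor of mTOR (105), Pak6, a kinase (109), Ldb1, a LIM-domain cofactor (98), and Clec2g (106). The peak of 116 reads near Thap12 and that of 104 reads near Gm52257 had no KO peak within 100 kb, at 167446 and 1131753 bp. The nearest other WT peak lay 18316 bp from the first and 1131723 bp from the second, where both lists were empty around it. By contrast the peak near Crocc2, with 111 reads, had a KO peak 289 bp away. Of these 12 highest-scoring peaks only those at Tuft1, Crocc2 and Ldb1 lay within 2 kb of a gene end.

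The 12 widest peaks had 49 to 88 reads, and 8 of them covered a promoter window. The widest, 2104 bp on chromosome 7 from 4148936 to 4151039, covered the promoter of Leng9 and had 66 reads. A peak of 2022 bp covered the promoter of Rprd2, which encodes a regulator of RNA polymerase II, with 57 reads, and one of 1993 bp covered those of Chchd4 and Tmem43, with 71. Promoters under the 12 widest also included Elovl1, an elongase of very long fatty acids (77 reads), Tpm4, an actin-binding tropomyosin (72), the adhesion gene Nectin2 (51) and Eapp (58). At Armc5, 88 reads stood over a local background of 20.2. Pde4b, a cAMP phosphodiesterase, had 49 reads over 2007 bp. That peak covered an internal promoter 37801 bp from the gene end. More than 2 kb from a gene end and over no promoter window lay the peak of Klf4 (2085 bp, 55 reads, 49532 bp from the span). So did those of Slc38a2, an amino acid transporter (1875 bp, 68 reads), and Ywhaz, a phosphoprotein-binding adaptor (1925 bp, 88 reads, with a KO peak 528 bp away).

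The 2408 peaks within 100 kb of a gene were linked to 2162 genes, 1951 of which had 1 such peak. The most, 5, were at Chd9, which encodes a chromatin remodeller and had 14 WT peaks in all, 1 of them shared. Reads at these 5 peaks were 52, 53, 73, 78 and 88. Cblb, an E3 ubiquitin ligase gene, had 4 among 12 WT peaks, with 86 reads at the peak over its promoter and 93, 53 and 50 at the others. Kif13a, Rab11fip4, Wnt7b and Tmem45a also had 4, among 13, 18, 14 and 20 WT peaks. At Tmem45a 9 of the 20 WT peaks were shared, at Kif13a 3 of 13, at Rab11fip4 4 of 18, at Wnt7b 5 of 14 and at Cblb 3 of 12. The spans of these genes ran from 46.4 kb (Wnt7b) to 226 kb (Chd9), and the counts were not adjusted for gene length.

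Gene lists differed in the share of their wide peaks that were WT-only, and their wide peaks also differed in strength. For differentiated keratinocyte genes it was 8 of 81 wide peaks (9.88%, 4.36 to 18.5) and for basal keratinocyte genes 7 of 65 (10.8%, 4.44 to 20.9), against 26.4% of all wide WT peaks. For Hippo and YAP genes it was 12 of 82 (14.6%, 7.80 to 24.2). For protein degradation and autophagy genes it was 14 of 29 (48.3%, 29.4 to 67.5), for chromatin and transcription machinery 15 of 35 (42.9%, 26.3 to 60.6), for RNA processing 12 of 26 (46.2%, 26.6 to 66.6) and for cytosolic ribosomal proteins 8 of 16 (50.0%, 24.7 to 75.3). The median reads of all wide peaks were 112, 109 and 129.5 in the first 3 lists and 75, 72, 72 and 71 in the last 4. From 50 to 79 reads, the heat shock list and these 4 lists together had 37 WT-only of 65 wide peaks (56.9%, 44.0 to 69.2), against 56.4% of all wide WT peaks in that range. The keratinocyte and hair follicle lists together had 20 of 52 (38.5%, 25.3 to 53.0). Both groupings were made after the values were seen.

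**Figure D5:**
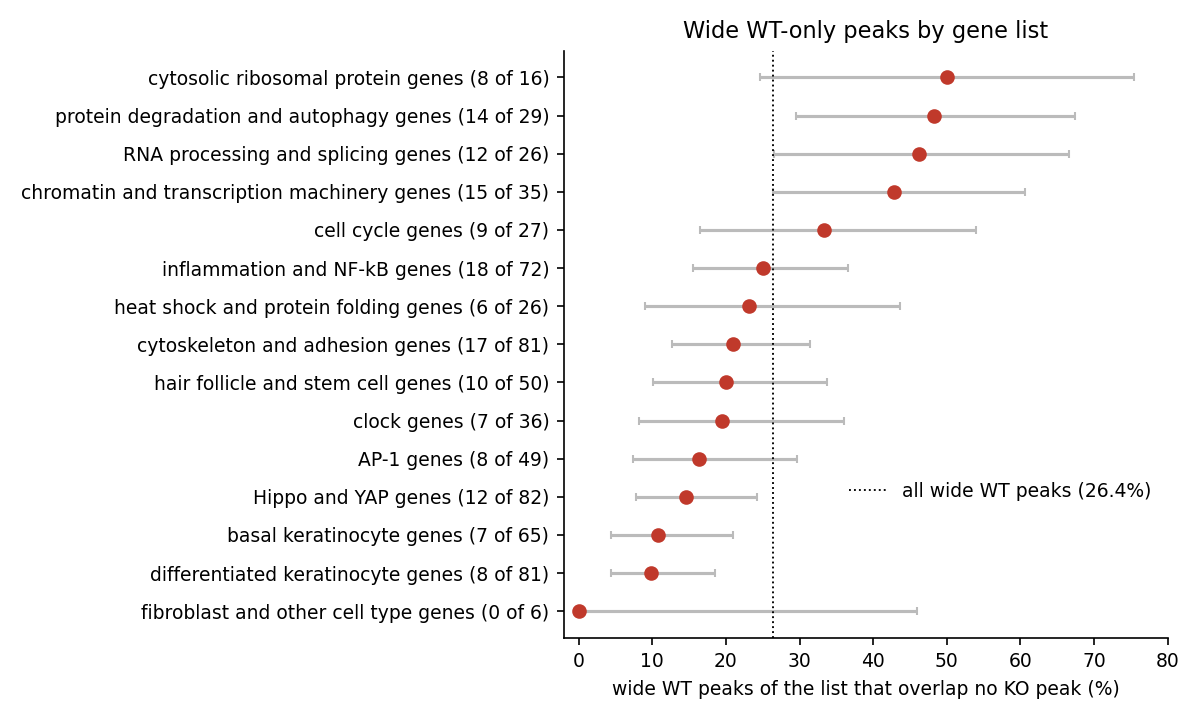
Share of the wide WT peaks of each gene list that overlap no KO peak (x axis, percent, with exact 95% intervals), with the counts beside each name; the dotted line is the 26.4% of all wide WT peaks. The ribosomal, degradation, RNA processing and chromatin lists lie to the right, from 42.9% to 50.0%, the heat shock list is at 23.1%, and the basal and differentiated keratinocyte lists are at 10.8% and 9.88%, with no matching on strength.

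In the 5 lists of general cell functions, 39 of 55 wide WT-only peaks (70.9%) lay at gene ends, as did 83 of all 132 wide WT peaks of these lists (62.9%). Of the ribosomal protein peaks, 7 of 8 lay within 2 kb of a gene end, among them Rps12 (80 reads, 16 bp from the span), Rpl23 (79), Rps2 (91), Rps19 (70) and, over a window shared with Rab13, Rps27 (66). Of the protein degradation peaks 11 of 14 did, with 75 reads at Wipi2, an autophagy gene, 83 at Fbxw7 and 57 at Cul1, which belong to a ubiquitin ligase. Nedd4l, a ubiquitin ligase gene, had 3 peaks deep inside its span, with 91, 79 and 76 reads. Of the chromatin and transcription peaks 11 of 15 did. Dot1l, which encodes a histone methyltransferase, had 92 reads with the summit 25 bp from the gene end, the bromodomain gene Brd2 had 79, Ccnt1, the cyclin of an elongation factor, 69, the co-repressor gene Ncor1 65 and Kmt2d 57. RNA processing genes had 5 of 12 at gene ends, such as Ddx17 (76) and Sf3b1 (58), and the strongest, in Hnrnpf with 106 reads, covered an internal promoter 7748 bp from the gene end. Heat shock genes had 6 of 26 wide peaks (23.1%, 8.97 to 43.6), with 66 reads at Hsph1 and 64 at Hspa4, both co-chaperones, 62 at Hsf2 and 58 at Hspa8.

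Clock genes had 7 wide WT-only peaks, at 6 genes, among 36 wide peaks (19.4%, 8.19 to 36.0). The peak in Dbp, a clock output factor driven by BMAL1, was 1763 bp wide with 74 reads on chromosome 7 from 45706616 to 45708378. Nr1d2, which encodes the repressor REV-ERBβ, had 67 reads over 1458 bp with the summit 177 bp from the gene end, and no KO peak for 18960 bp. Bhlhe40, a repressor of clock targets, had 2 such peaks with 75 and 51 reads. Per2, a core repressor of the clock, had 56 reads 904 bp from its gene end, and Usp2, a rhythmic deubiquitinase gene, 59. The peaks of Dbp, Nr1d2 and Per2 and the stronger one of Bhlhe40 lay within 2 kb of a gene end. Those of Nr1d2 and Usp2 covered a promoter window and that of Dbp did not. The Usp2 summit lay 135 bp from a start, though 10842 bp from a gene end. For Bhlhe40 and Per2 it could not be seen whether the gene's own promoter was covered. The nearest start in the promoter table lay 160141 bp from that Bhlhe40 summit (Edem1) and 36221 bp from that of Per2 (Traf3ip1). In the order Dbp, Nr1d2, Bhlhe40 and Per2 these peaks lay 6252, 18960, 35395 and 56341 bp from the nearest KO peak. The nearest other WT peak lay 299, 19068, 7644 and 17426 bp away.

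Among Hippo and YAP genes, 3 of 12 wide WT-only peaks lay at a gene end, and the rest were inside or beyond the genes. Tead4, one of the DNA-binding partners of YAP, had its stronger peak, of 89 reads, inside its span on chromosome 6 from 128295961 to 128296666, 3493 bp from a KO peak. Wwtr1, which encodes TAZ, had 2 with 59 and 50 reads, 1408 and 1926 bp from a KO peak. Taok1, a kinase upstream of the pathway, had 80 reads over a promoter window inside its span, Amotl2 67 and the giant cadherin Fat1 55. AP-1 genes had 8 among 49 wide peaks (16.3%, 7.32 to 29.7). The promoters of Fosb (70 reads), Junb (66) and Mafk (63) each lay under one, and a peak 8917 bp from Fos had 83 reads over a local background of 18.7.

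Inflammation and NF-κB genes had 18 among 72 wide peaks (25.0%, 15.5 to 36.6), close to the 26.4% of all wide WT peaks. After Tnip1 came Socs3, a feedback inhibitor of cytokine signalling, with 85 reads over its promoter, and Bcl3, a nuclear IκB protein, with 85 reads 1426 bp from the gene end. Peaks outside the spans of Nfkb1 and Nfkbiz had 75 and 84 reads and lay 1468 and 3777 bp from a KO peak. The peak near the cytokine gene Csf2 had 68 reads over 1146 bp, with no KO peak for 158050 bp.

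In the keratinocyte and hair follicle lists, 6 of 25 wide WT-only peaks lay at a gene end, as did 37 of all 196 wide WT peaks of these lists (18.9%). Of 7 in the basal list, 1 was at a gene end, that of Cdh3, which encodes P-cadherin, with 54 reads 165 bp from the span. The others included Plec, a hemidesmosome linker (77 reads, with a KO peak 216 bp away), Fgfr2 (68), Krt14, a basal keratin (66, at 11887 bp), Wnt4 (58) and Egfr (57). In the differentiated list, Tgm1, the transglutaminase that cross-links the cornified envelope, had 55 reads inside its span, 541 bp from the end, and Grhl3, a barrier transcription factor, 65. Hair follicle and stem cell genes had 10 among 50 wide peaks (exact interval of the share 10.03% to 33.7%). These included Nfatc1 (71, 52 and 45 reads), Plet1 (65), Tcf7l2 over its promoter (61), Runx1 (59) and Ptch1, the hedgehog receptor (55). Cytoskeleton and adhesion genes had 17 among 81 (21.0%, 12.7 to 31.5), 9 of them at gene ends. Those at gene ends included Rhoa (103), Tpm4, Ctnnb1 (72) and Zyx, a zyxin of focal adhesions (70). The peaks of Tln2 (87) and Myh9 (70) lay 8501 and 15694 bp from a gene end. Cell cycle genes had 9 among 27 (33.3%, 16.5 to 54.0), with 98 reads in Ccne2, 66 near Ccnd1, 76 over a promoter of E2f2 and 55 at Ccne1. Markers of fibroblasts and of other cell types and tissues had none among 6 wide peaks, which allows a share of up to 45.9%.

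By chromosome, the WT-only share of wide peaks lay between 22.8% on chromosome 1 and 29.8% on chromosome 7, which carries Arntl, the gene for BMAL1. The intervals of these 2 (19.5 to 26.3 and 26.2 to 33.5) overlap narrowly. Chromosome X had 16 of 54 (29.6%, 18.0 to 43.6). Hairpins of 10 of the 1005 microRNA genes in the RefSeq table lay under a wide WT-only peak. Under the 6916 wide shared peaks lay 16. Under the 19777 WT-only peaks under 700 bp lay 27, and under the 7399 shared peaks under 700 bp 5. The wide WT-only peaks numbered 2484. As the classes differ in size, these counts do not rank them by hairpins per peak, and this was not tested. Among the 10 was that of Mirlet7i, under a peak of 1672 bp and 67 reads on chromosome 10 from 122985250 to 122986921.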

How the data were processed

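YAP ChIP-seq peaks of WT and KO epidermis were used as the authors deposited them, 1 list per genotype. The submitters' processing notes name Trimmomatic 0.36, SAMtools 1.5, MACS2 2.1.1 and the build mm10 without their roles. No source used here names the aligner, the control or what was pooled. From the deposited values, the authors' score equals the −log10 q multiplied by 10 and cut to a whole number. The authors also give a fold, a ratio of signal to background at the summit, and −log10 p and −log10 q. Both lists are cut near a −log10 q of 2.

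Reads at each summit were recovered from fold and p by the caller's Poisson scoring. In both lists 100% of peaks came out as whole reads, at a tolerance of 0.002 in −log10 p, with scalings of 0.694 (WT) and 0.842 (KO), against 0.935% and 0.397% with the scaling 3% off. Tested on simulated lists of 3000 peaks made with the same formulas, exact reads returned for 100%. Summit reads of WT and KO peaks were not set against each other. Total reads per sample are 25 to 50 M per the labels.

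Gene spans came from RefSeq GRCm38.p6. A summit was linked to the nearest of 21900 protein-coding spans within 100 kb. That table gives no strand, so position was taken from both gene ends; the strand and start sites came from the promoter table. Intervals are exact Clopper-Pearson at 95% and cover counting error only. Overlaps were the same with bedtools 2.31.1. Analyses used Python 3.11.15 and scipy 1.17.1. The peaks, the gene lists and the rules were chosen with earlier results of these data known. Named peaks are the 12 of highest score, the 12 widest, those of the 6 genes with most, and up to 6 per list. Of the list genes, Il36a, Il36g, Loricrin and Trdc had no protein-coding span of that symbol. The 2 input samples were not analysed here.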

Additional observations from a re-analysis of the deposited data

How the results depend on the processing

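At a minimum width of 600, 800 and 1000 bp, the number of wide WT-only peaks was 4105, 1576 and 606, their share of wide peaks 30.7%, 23.5% and 17.4%, and their share near a gene end 51.4%, 60.2% and 61.1%. The summit lay 35.6%, 30.4% and 27.7% of the width from the nearer edge. Median reads were 60.5 at 800 bp and 63 at 1000 bp, and 56.9% lay inside a gene span at 1000 bp. With 50% reciprocal overlap, which counts more peaks as WT-only by its construction, there were 4788 (50.9% of wide peaks), 49.6% of them near a gene end. At a −log10 q of at least 10 the share of wide peaks was 20.4%. Near a gene end lay 51.0% within 1 kb and 64.9% within 5 kb, 63.2% with all genes of the table, 52.2% near the starts of the promoter table and 59.5% among peaks of 50 to 69 reads, the last 2 chosen after seeing the data. With all genes 67.4% lay inside a span. A KO peak lay within 1 kb of 8.17% and within 10 kb of 39.4%, and another WT peak within 2 kb of 33.7% and within 20 kb of 78.99%. With 150 bases covered, 43.4% were over a promoter. List genes with a wide WT-only peak rose from 127 to 294 when any gene within 100 kb counted. The median −log10 q was 32.5% of that of wide shared peaks, against 55.0% for reads. Apart from settings that change a distance or a limit by construction, the cause was not tested. In the other 15 alternatives of the main results the value stayed inside its interval or factor of 1.5, and named peaks stayed in the set in 340 of 390 checks. No paired analysis was possible because WT and KO each have a single pooled list, and for the same reason no replicate could be left out. Reads in KO at these sites were not analysed here.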
